A study of Mus musculus with 4 samples.

Results

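The solute carrier (SLC) superfamily holds the membrane proteins that move sugars, amino acids, organic and inorganic ions, vitamins, metals and nucleosides across plasma and organelle membranes. It was followed here on 4 arrays of mouse renal cortex. The members were all genes whose symbol in the platform's probe-to-gene table began with Slc and a digit, 170 symbols, without Slc12a3, Slc8a1 and Slc37a4, which left 167 of the 9890 genes on the array. They were read by 169 probes, because Slc17a6 and Slc14a1 had 2 each. Of the 167, 3 carry the name but are not carriers: Slc9a3r1 and Slc9a3r2 encode scaffold proteins that bind the tails of transporters, and Slc4a1ap encodes an adaptor protein.

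The arrays came from 4 groups of male C57BL/6J mice killed at 20 weeks of age, and there was 1 array per group. DM-WT were wild-type (ICAM-1+/+) mice made diabetic by an intraperitoneal injection of streptozotocin, a toxin of pancreatic beta cells, at 200 mg/kg in citrate buffer when 8 weeks old, and ND-WT were wild-type mice given citrate buffer alone. DM-KO were ICAM-1-/- mice given the same dose of streptozotocin, and ND-KO were ICAM-1-/- mice given citrate buffer alone. ICAM-1 is a surface protein of endothelium that white blood cells grip when they leave vessels; the knockout mice were bought as a line on the C57BL/6J background. Kidneys were taken 12 weeks after the injection, and only streptozotocin-treated mice above a set blood glucose limit were kept. The labels give 5 mice per group and do not say whether an array held RNA of 1 mouse or of several. No probe was named Icam1 in the tables used here, so the deletion was not checked on these arrays.

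In the cortex the proximal tubule uses such carriers to take back filtered glucose, amino acids, phosphate, sulfate and bicarbonate and to secrete organic anions and cations. The sodium pump on the blood side keeps sodium low inside the cell, and sodium-coupled carriers on the urine side use that gradient, while facilitative carriers let the solute out on the blood side. Diabetes loads this system with filtered glucose, and ketone bodies and lactate enter cells through the proton-coupled monocarboxylate carriers. The mitochondrial carriers of family 25 exchange nucleotides, phosphate and metabolites across the inner membrane.

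Promoters of 4 members are shown because these genes stood higher or lower with diabetes in both genotypes; they were chosen after their values and motifs were seen. The sequences are those of RefSeq on GRCm38.p6, from 250 bases before to 50 bases after the annotated start, 5′ to 3′ on the strand of the gene. Capitals mark CACGTG, an E-box, in Slc16a1 and Slc20a1, and GTTAAT or its reverse complement, a half-site of the kidney and liver factor HNF1, in Slc22a6 and Slc34a1. Slc16a1 encodes the monocarboxylate carrier MCT1 (chr3:104638414-104638713, plus strand), Slc20a1 the sodium-phosphate carrier PiT-1 (chr2:129198523-129198822, plus strand, 1 of 2 annotated starts), Slc22a6 the organic anion carrier OAT1 (chr19:8617746-8618045, plus strand) and Slc34a1 the sodium-phosphate carrier NaPi-IIa (chr13:55399398-55399697, plus strand).
Slc16a1: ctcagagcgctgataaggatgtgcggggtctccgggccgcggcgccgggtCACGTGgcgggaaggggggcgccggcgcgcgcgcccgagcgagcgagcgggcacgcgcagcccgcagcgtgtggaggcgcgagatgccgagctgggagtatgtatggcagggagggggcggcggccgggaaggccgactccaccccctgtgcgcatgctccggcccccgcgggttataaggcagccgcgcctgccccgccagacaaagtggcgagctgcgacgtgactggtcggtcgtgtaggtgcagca
Slc20a1: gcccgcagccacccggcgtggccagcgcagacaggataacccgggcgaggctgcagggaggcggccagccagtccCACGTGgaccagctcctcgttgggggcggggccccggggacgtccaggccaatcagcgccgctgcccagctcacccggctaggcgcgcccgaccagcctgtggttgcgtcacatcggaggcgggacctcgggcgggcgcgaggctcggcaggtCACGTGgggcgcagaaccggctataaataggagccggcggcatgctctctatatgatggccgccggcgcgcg
Slc22a6: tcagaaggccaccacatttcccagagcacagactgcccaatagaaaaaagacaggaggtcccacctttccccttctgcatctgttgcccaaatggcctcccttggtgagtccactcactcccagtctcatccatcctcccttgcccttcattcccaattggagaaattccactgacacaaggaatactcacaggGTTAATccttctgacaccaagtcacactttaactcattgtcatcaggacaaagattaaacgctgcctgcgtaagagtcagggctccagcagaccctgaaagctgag
Slc34a1: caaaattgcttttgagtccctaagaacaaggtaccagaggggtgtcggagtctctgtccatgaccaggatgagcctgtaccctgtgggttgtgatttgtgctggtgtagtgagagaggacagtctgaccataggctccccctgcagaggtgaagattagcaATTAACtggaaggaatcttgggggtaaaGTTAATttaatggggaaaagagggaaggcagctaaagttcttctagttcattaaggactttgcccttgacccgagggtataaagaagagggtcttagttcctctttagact

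The E-box of Slc16a1 began 200 bases before the start, and those of Slc20a1 began 175 and 22 bases before it. The half-site of Slc22a6 began 56 bases before the start, and those of Slc34a1 began 89 and 61 bases before it. Of the 167 members, 135 had promoters in the RefSeq table, 185 in all. On either strand, CACGTG was found in 15.1% of the members' promoters against 7.15% of all 32851 promoters of the table, and GTTAAT in 5.95% against 7.10%. GGGCGG, the GC box, was found in 57.3% of the members' promoters against 35.7% of all, and TATAAA in 9.19% against 13.6%. Among members usable on all 4 arrays, 8 held GTTAAT: Slc22a6, Slc22a8, Slc34a1, Slc36a1 and Slc7a15 were lower with diabetes in both genotypes, Slc10a2 was higher in both, and Slc3a1 and Slc7a7 differed in sign. Of all 114 members usable on 4 arrays 36.8% were lower in both, against 31.2% of genes, and whether GTTAAT goes with a direction was not tested. Of the 18 that held CACGTG, 8 were higher in both genotypes and 8 lower in both. Of all 114 members usable on 4 arrays 28.9% were higher in both, against 28.6% of genes. Whether CACGTG goes with a direction was not tested either. GGGCGG was held by 66, of which 22 were lower in both and 18 higher in both, and TATAAA by 12, of which 6 were lower and 2 higher.

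A spot was usable when the scanner software marked it as above background and of good quality (Flag 0). The members' spots were usable in 118 of 167 (70.7%) on DM-WT, 124 (74.3%) on ND-WT, 126 (75.4%) on DM-KO and 123 (73.7%) on ND-KO, against 62.8%, 64.8%, 66.2% and 65.9% of all gene probes. There were 114 members usable on all 4 arrays, 9 on 3 arrays, 8 on 1 array and 36 on none, and Slc33a1 had a spot marked poor on DM-KO. Members at background on every array included carriers of nerve endings such as Slc18a3, Slc32a1, Slc6a2 and Slc17a6, the thyroid iodide carrier Slc5a5, the cystine-glutamate exchanger Slc7a11 and Slc11a1, a metal carrier of macrophage phagosomes. The large neutral amino acid carrier Slc7a5, the vitamin C carrier Slc23a2, the anion exchanger Slc4a3 and the carnitine carrier Slc22a21 were also at background on all 4. The betaine carrier Slc6a12 was usable on DM-KO alone and the urea carrier Slc14a2 on 3 arrays, and neither had a bound above 1.22-fold in any comparison.

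Values are log2 intensities after background correction with an offset of 50 and quantile normalization; the offset shrinks the differences of dim genes. Over genes usable on 4 arrays, Pearson correlations ran from 0.983 to 0.988 in pairs with DM-WT and from 0.989 to 0.994 in the other pairs. Over the members they ran from 0.948 to 0.952 in pairs with DM-WT and from 0.993 to 0.995 in the others. The members included Slc25a3, which differed by -4.75 between DM-WT and ND-WT. Its part in the members' lower correlations with DM-WT was not tested. Bacterial control spots read 0.578 times their ND-WT signal on DM-WT, 1.20 times it on DM-KO and 1.25 times it on ND-KO, and spots of the same bacterial probe had an SD of 0.100 to 0.112 on the log2 scale within an array. All 14 proximal tubule markers on the array and all 7 of the thick limb were usable on at least 1 array. Of 6 podocyte markers 3 were, without Nphs1, and none of 4 adrenal and 3 skeletal muscle markers were. In whole cortex, fewer cells of a type and less RNA per cell cannot be told apart.

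Because each group had 1 array, a difference between a pair of arrays has no replicate check and is given by its size, counted as large at 1.5-fold. The replicated contrast was a limma fit over all 4 arrays with diabetes and genotype as additive terms, which leaves 1 residual degree of freedom per gene. On simulated data this fit recovered 0% of genes changed 1.5-fold, 46.0% of those changed 2-fold and 74.0% of those changed 3-fold. With the spots of the edge columns described below left out, it recovered 0%, 56% and 85%. What the fit leaves over for a gene is how unequal its difference with diabetes was in the genotypes. P-values rest on that amount, moderated over all genes. It mixes noise of mice and arrays with any real dependence on ICAM-1, and no group has another array to tell these apart.

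Few solute carriers differed at least 1.5-fold with diabetes, as was so for genes in general. Between DM-WT and ND-WT, 1 of 116 measured members differed at least 1.5-fold, Slc25a3, against 159 of 6050 genes (2.63%); the members' count was 5 with median scaling and 8 in the deposited value table. With the spots of the edge columns described next left out, it was 0 of 112, against 140 of 5822 genes (2.4%). Between DM-KO and ND-KO, 1 of 121 members passed, Slc16a1, against 66 of 6334 genes (1.04%). The members' median log2 difference was -0.03 in wild-type and 0.0059 in knockout mice, against 0.00 and -0.0058 for all genes. Outside the edge columns the differences of DM-WT minus ND-WT ran from -0.55 to 0.49, with the 5th and 95th percentiles at -0.37 and 0.37, against -0.30 and 0.34 for all genes. For DM-KO minus ND-KO they ran from -0.26 to 0.74, with the 5th and 95th percentiles at -0.22 and 0.30, against -0.22 and 0.24 for all genes.

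In the limma fit no member was called at an adjusted p under 0.05 for diabetes (0 of 122), against 1 of 6507 genes (0.0154%), and with the edge columns left out 0 of 115, against 93 of 6214 genes (1.5%). At an unadjusted p under 0.05, 21 of 122 members (17.2%) passed, 11 higher and 10 lower, against 829 of 6507 genes (12.7%). The smallest limma adjusted p of a member was 0.215, that of Slc16a1, and 0.0707 with the edge columns left out. Of 114 members usable on 4 arrays, 33 (28.9%) were above 0 in both genotypes, against 28.6% of genes. Another 42 (36.8%) were below 0 in both, against 31.2% of genes.

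**Figure D1:**
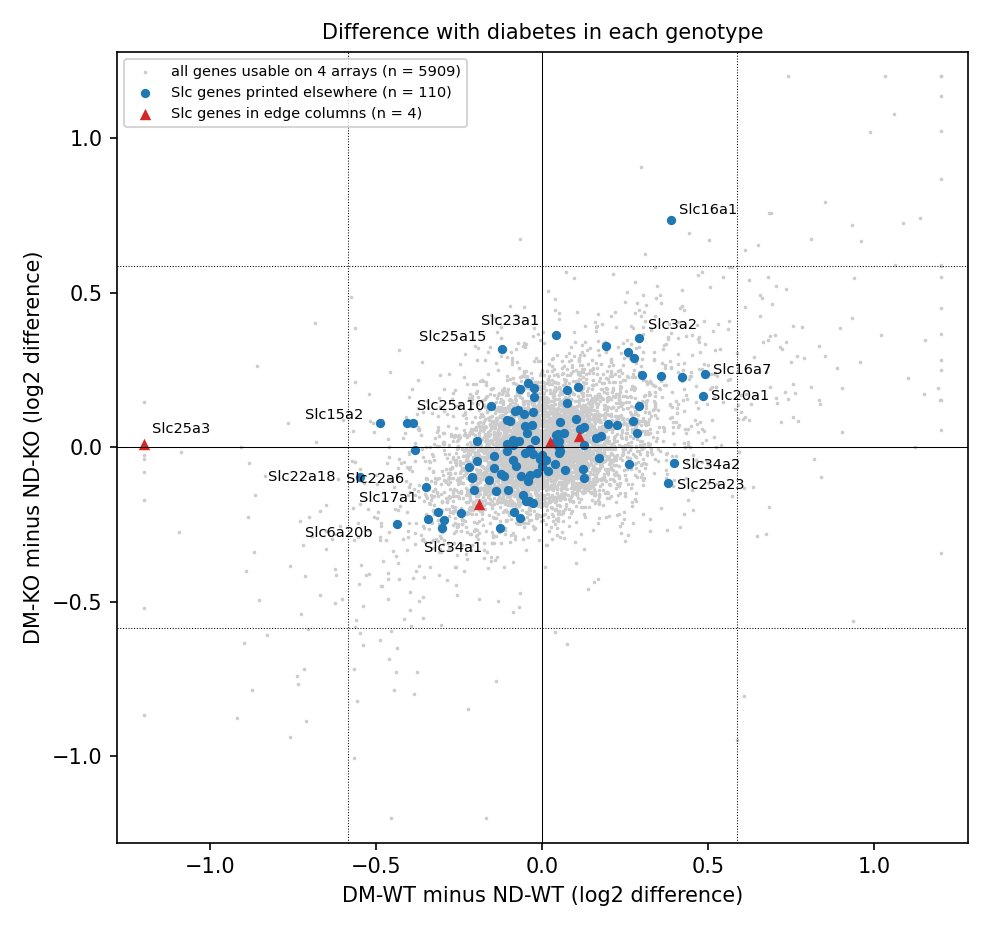
Each point is a gene usable on 4 arrays, at its log2 difference of DM-WT minus ND-WT (x axis) and DM-KO minus ND-KO (y axis); blue points are solute carriers, red triangles those of the edge columns, grey points all 5909 genes, and dotted lines mark 1.5-fold. Values beyond 1.2 are drawn at 1.2, as for Slc25a3 at -4.75 on the x axis. Slc16a1 is the only blue point past a dotted line, at 0.39 and 0.74.

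Slc25a3, which imports phosphate into mitochondria for ATP synthesis, read 6.86 on DM-WT and 11.61 on ND-WT, against 11.63 on DM-KO and 11.62 on ND-KO. The 3 other arrays lay within 0.02 of each other and DM-WT stood alone, 26.9-fold lower than ND-WT. Its spot lies at the edge of the print, in Meta Row 1, row 89, column 48. The limma diabetes coefficient was -2.37, with a 95% interval of -5.56 to 0.82 and an adjusted p of 0.491.

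Meta Row 1, columns 44 to 48, held 9 members. Those in column 48 were Slc25a3, the lysosomal nucleoside carrier Slc29a3 (row 71) and Slc35a5 (row 73) and Slc35f2 (row 76) of the nucleotide sugar carrier family. On DM-WT Slc29a3, Slc35a5 and Slc35f2 were not above background, while all 3 were usable on the other arrays. Against ND-WT they were at least 4.96-fold, 3.66-fold and 1.67-fold lower on DM-WT, and DM-KO stood at least 4.51-fold, 3.28-fold and 1.83-fold above DM-WT. A bound sets the bright array's value against the dim probe's own value or the lowest usable value of its array, whichever is higher. Between DM-KO and ND-KO the 3 differed by -0.16, -0.17 and 0.08.

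Of the 5 members in columns 44 to 47, 3 were measured on all arrays and differed by at most 0.19 between DM-WT and ND-WT. The mitochondrial citrate carrier Slc25a1 (row 102, column 46) differed by 0.11 between DM-WT and ND-WT and the amino acid carrier homologue Slc38a10 (row 72, column 46) by 0.02. Slc44a4, a choline-like and thiamine pyrophosphate carrier (row 54, column 47), differed by -0.19 there and by -0.19 between DM-KO and ND-KO. Slc4a3 and Slc22a21 were at background throughout. Among all bright probes of that block, those with a net intensity over 100 on the other 3 arrays, 18 of 31 in column 48 (58.1%) were at least 2-fold lower on DM-WT, against 5 of 105 in columns 44 to 47 (4.76%) and 4 of 1432 in columns 1 to 43 (0.279%). In the lower block it was 1 of 24 in column 48. The low readings of Slc25a3, Slc29a3, Slc35a5 and Slc35f2 on DM-WT thus stood in the outermost column of the print, where most bright probes of any gene were low on that array.

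**Figure D2:**
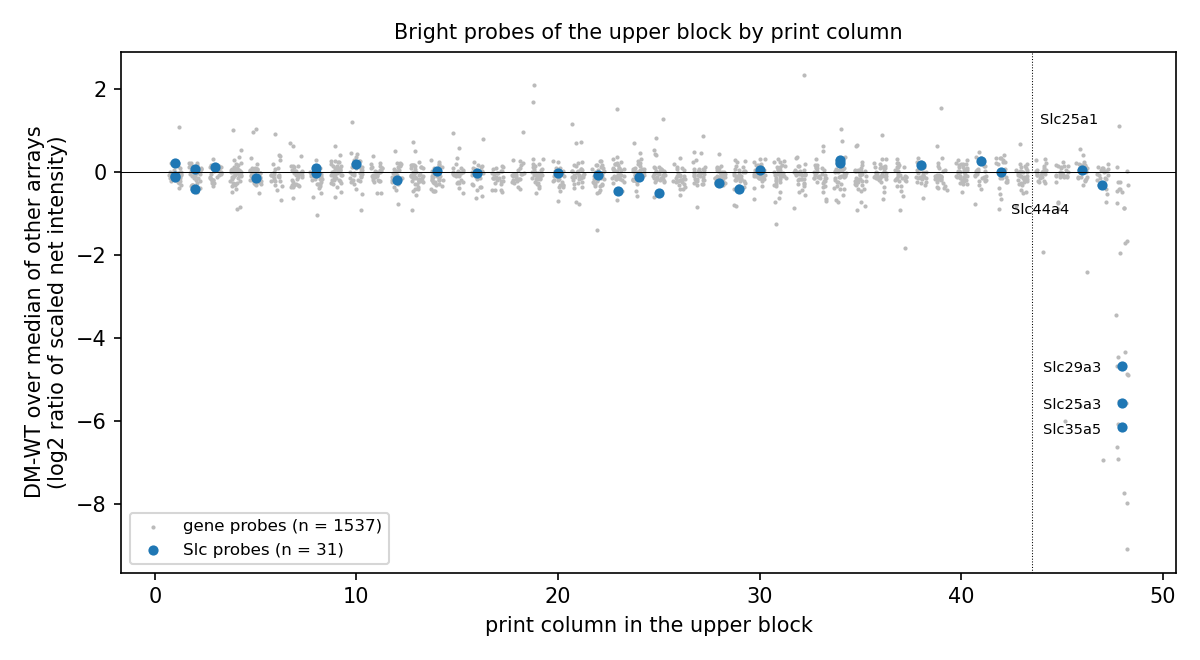
Each point is a bright gene probe of Meta Row 1 at its print column (x axis) and at the log2 ratio of DM-WT over the median of the other 3 arrays, on net intensities scaled by the constants of the deposited value table (y axis); 31 of the 1568 probes are solute carriers (blue), and the dotted line separates columns 44 to 48. Of the 31 probes in column 48, 18 are at least 2-fold lower on DM-WT, Slc25a3, Slc29a3 and Slc35a5 among the low points, while 5 such probes lie in columns 44 to 47 and 4 in columns 1 to 43.

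In what follows, a pair of log2 differences with diabetes gives DM-WT minus ND-WT and then DM-KO minus ND-KO. Family 22 holds organic anion and cation carriers, the carnitine and urate carriers and some members of other function. Together with Slc47a1, 9 of its members were usable on 4 arrays, and 8 of the 9 were below 0 with diabetes in both genotypes, against 31.2% of all genes. Some of these values were close to 0, and limma called none of the 9. With the bile acid carriers added, the class had a median of -0.14 in wild-type and -0.10 in knockout mice (11 members, 9 lower in each, 8 lower in both). With median scaling the class medians were -0.34 and -0.15, where those of all genes were -0.08 and -0.02. In the deposited value table they were -0.28 and -0.19, where those of all genes were -0.06 and -0.05.

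Slc22a6, which takes organic anions up from the blood, read 10.13 on DM-WT and 10.48 on ND-WT, and 10.54 on DM-KO and 10.67 on ND-KO. DM-WT was the lowest of the 4, and the wild-type arrays lay below the knockout arrays. Its limma coefficient for diabetes was -0.24 (SE 0.08, adjusted p 0.365). Slc47a1, the proton-coupled exchanger MATE1 that moves organic cations into the urine, read 10.45 on DM-WT and 10.70 on ND-WT, and 10.57 on DM-KO and 10.79 on ND-KO. Both diabetic arrays lay below both nondiabetic arrays, with a limma coefficient of -0.23 (SE 0.06, adjusted p 0.291).

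Slc22a18, an imprinted gene of the family, had the lowest difference of any member outside the edge columns, -0.55 in wild-type against -0.10 in knockout mice. It read 10.42 on DM-WT, 10.96 on ND-WT, 10.74 on DM-KO and 10.84 on ND-KO, so DM-WT stood below 3 closer arrays. Slc22a17, a receptor for the iron-binding protein lipocalin-2, read 6.52 on DM-WT and 6.90 on ND-WT, and 6.64 on DM-KO and 6.64 on ND-KO. Here ND-WT was the odd array, above the other 3. The organic cation carrier Slc22a2 (OCT2) differed by -0.14 in each genotype, the organic anion carrier Slc22a8 (OAT3) by -0.12 and -0.09, and the ergothioneine carrier Slc22a4 by -0.21 and -0.10. The carnitine carrier Slc22a5 (OCTN2) was the exception in knockout mice, at -0.05 in wild-type and 0.11 there. Slc22a12, the urate carrier URAT1, differed by -0.05 and -0.17 with diabetes and more by genotype.

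Slc10a2, the apical sodium-dependent bile acid carrier, went the other way. It read 7.34 on DM-WT and 7.08 on ND-WT, and 7.40 on DM-KO and 7.09 on ND-KO. Both diabetic arrays stood above both nondiabetic arrays, with a limma coefficient of 0.28 (SE 0.06, adjusted p 0.242).

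Of the phosphate carriers, Slc34a1 was lower with diabetes in both genotypes, Slc20a1 was higher in both, and Slc34a2 differed in sign. Slc34a1, the main apical sodium-phosphate carrier of the proximal tubule, read 10.58 on DM-WT and 10.92 on ND-WT, and 10.58 on DM-KO and 10.81 on ND-KO. The diabetic arrays were alike and both lay below the nondiabetic arrays, and the limma coefficient was -0.29 (SE 0.07, adjusted p 0.256). Slc17a1, a proximal tubule carrier of urate and other organic anions, read 10.97 on DM-WT and 11.29 on ND-WT, and 11.20 on DM-KO and 11.41 on ND-KO. Its differences with diabetes were -0.31 and -0.21, and those of the lysosomal sialic acid carrier Slc17a5 were -0.21 and -0.14.

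Slc20a1, a widely expressed phosphate carrier read 7.18 on DM-WT and 6.70 on ND-WT, and 6.73 on DM-KO and 6.57 on ND-KO. DM-WT was the high array, with differences of 0.48 in wild-type and 0.17 in knockout mice and a limma coefficient of 0.32 (SE 0.10, adjusted p 0.335). Slc34a2, the phosphate carrier of lung and gut epithelium, read 7.71 on DM-WT and 7.31 on ND-WT, and 7.45 on DM-KO and 7.50 on ND-KO. It was higher on DM-WT alone, 0.40 in wild-type against -0.05 in knockout mice.

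**Figure D3:**
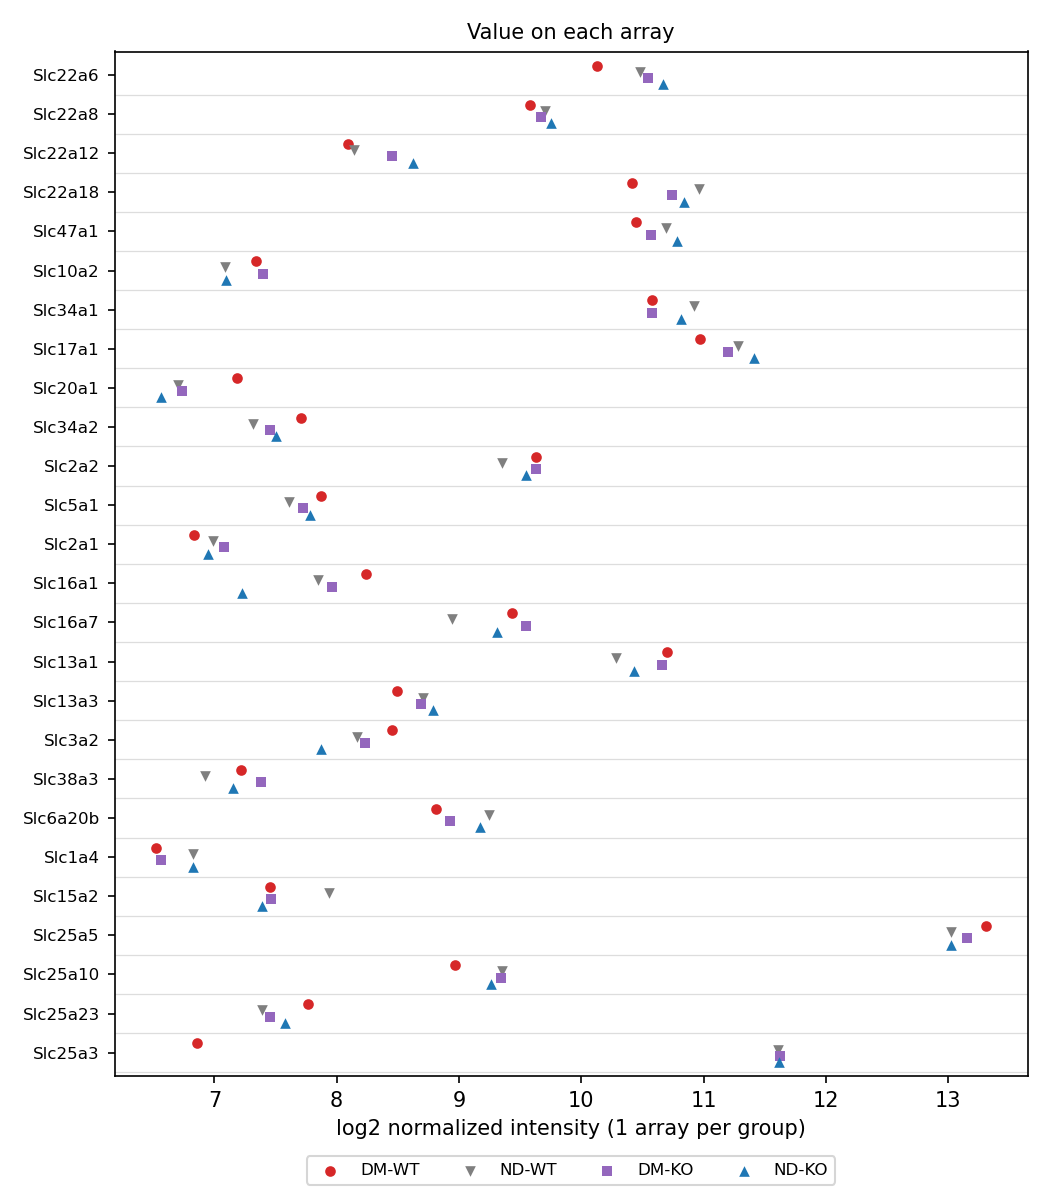
Each row is a solute carrier, and the 4 symbols are its log2 normalized intensity (x axis) on DM-WT, ND-WT, DM-KO and ND-KO, 1 array per group; rows are different probes and are not to be compared with each other. Slc34a1, Slc47a1, Slc6a20b, Slc1a4 and Slc17a1, among others, have both diabetic arrays left of both nondiabetic arrays. Slc16a7, Slc13a1, Slc10a2 and Slc16a1, among others, have the reverse, and Slc25a3 has DM-WT far left.

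No measured glucose carrier differed 1.5-fold with diabetes in either genotype, but no value is given here for the glucose carrier Slc5a2 (SGLT2). Slc2a2 (GLUT2), the facilitative carrier through which the proximal tubule returns glucose to the blood, read 9.63 on DM-WT and 9.35 on ND-WT, and 9.63 on DM-KO and 9.55 on ND-KO. The diabetic arrays were alike and ND-WT was the low array, with a limma coefficient of 0.18, a 95% interval of -0.03 to 0.39 and an adjusted p of 0.450. Slc5a1 (SGLT1), the sodium-coupled carrier of the late proximal tubule, read 7.87 on DM-WT and 7.61 on ND-WT, and 7.73 on DM-KO and 7.78 on ND-KO. Its difference was 0.26 in wild-type and -0.05 in knockout mice, with an interval for the effect of diabetes of -0.17 to 0.37.

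Slc2a1 (GLUT1), the basal glucose carrier, had opposite signs, -0.15 in wild-type and 0.13 in knockout mice. Slc2a4 (GLUT4), the insulin-dependent carrier, differed by 0.13 and 0.06, and the fructose carrier Slc2a5 by -0.10 and 0.08. Of the inositol carriers, Slc5a3 differed by 0.13 and 0.01 and Slc5a11 by 0.08 and 0.14. The class median was 0.08 in wild-type (9 members, 6 higher) and 0.04 in knockout mice (10 members, 6 higher).

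In the main setting the highest difference with diabetes of any measured member was that of a monocarboxylate carrier in each genotype, Slc16a7 in wild-type and Slc16a1 in knockout mice. In wild-type the phosphate carrier Slc20a1 was nearly equal, at 0.483 against 0.489 for Slc16a7. With an offset of 16 and in the deposited value table Slc20a1 differed at least 1.5-fold between DM-WT and ND-WT, and Slc16a7 did not. Slc16a1 (MCT1) read 8.24 on DM-WT and 7.85 on ND-WT, and 7.96 on DM-KO and 7.22 on ND-KO. ND-KO was the lowest array and DM-WT the highest, and in each genotype the diabetic array was above the nondiabetic, by 1.31-fold in wild-type and 1.66-fold in knockout mice. The limma coefficient for diabetes was 0.56, with a 95% interval of 0.27 to 0.85 and an adjusted p of 0.215, which ran from 0.0707 to 0.746 over 12 settings. Embigin (Emb), a glycoprotein that escorts monocarboxylate carriers to the membrane, differed by 0.40 and 0.15.

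Slc16a7 (MCT2), the high-affinity carrier of the same family, read 9.43 on DM-WT and 8.95 on ND-WT, and 9.54 on DM-KO and 9.31 on ND-KO. Both diabetic arrays stood above both nondiabetic arrays, with a limma coefficient of 0.36 (SE 0.09, adjusted p 0.261). Slc13a1, the apical sodium-sulfate carrier, read 10.70 on DM-WT and 10.28 on ND-WT, and 10.66 on DM-KO and 10.43 on ND-KO. The diabetic arrays were again the high pair, with a limma coefficient of 0.32 (SE 0.08, adjusted p 0.261). Of the dicarboxylate carriers, the apical Slc13a2 differed by 0.16 and 0.03 and the basolateral Slc13a3 by -0.21 and -0.10. The class median was 0.10 in wild-type (8 members, 5 higher) and 0.04 in knockout mice (9 members, 7 higher).

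Amino acid carriers had a median of -0.06 in wild-type (19 members, 13 lower) and -0.0062 in knockout mice (10 of 19 lower). Slc3a2, the heavy chain shared by the large neutral and cationic amino acid exchangers, read 8.45 on DM-WT and 8.16 on ND-WT, and 8.23 on DM-KO and 7.87 on ND-KO. It was higher on the diabetic array of each genotype, by 0.29 and 0.35, with a limma coefficient of 0.32 (SE 0.06, adjusted p 0.221). Its light chains had smaller differences: Slc7a7 differed by 0.13 and -0.10, Slc7a8 by -0.03 and 0.07, and Slc7a5 was at background. Slc38a3 (SNAT3), the glutamine carrier that feeds ammonia formation in the proximal tubule, read 7.22 on DM-WT and 6.92 on ND-WT, and 7.38 on DM-KO and 7.15 on ND-KO. Its differences were 0.30 and 0.23, with a limma adjusted p of 0.261.

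Slc6a20b, placed in the amino acid class, read 8.81 on DM-WT and 9.25 on ND-WT, and 8.92 on DM-KO and 9.17 on ND-KO. Slc1a4 (ASCT1), a carrier of alanine, serine and cysteine, read 6.52 on DM-WT and 6.82 on ND-WT, and 6.56 on DM-KO and 6.83 on ND-KO. Both genes had the diabetic arrays as the low pair, with limma coefficients of -0.34 and -0.28 and adjusted p of 0.245 and 0.240. Slc15a2 (PEPT2), which takes back filtered peptides, read 7.45 on DM-WT, 7.94 on ND-WT, 7.47 on DM-KO and 7.39 on ND-KO. Here ND-WT was the odd array, so the difference was -0.49 in wild-type and 0.08 in knockout mice.

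The cystine carrier made of Slc3a1 and Slc7a9, the pair whose loss causes cystinuria, differed by no more than 0.16. Slc3a1 read 11.12 on DM-WT and 11.23 on ND-WT, and 11.31 on DM-KO and 11.30 on ND-KO. Slc3a1 differed by -0.11 in wild-type and 0.01 in knockout mice, and Slc7a9 by -0.06 and -0.16. The glutamate carrier Slc1a1 differed by -0.22 and -0.06, the taurine carrier Slc6a6 by -0.09 and 0.02, and Slc38a2, a neutral amino acid carrier, by 0.05 and -0.02. The serotonin carrier Slc6a4 differed by -0.04 and 0.21, at values close to background.

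Carriers of ions and acid-base equivalents differed both ways, with class medians of -0.0016 in wild-type and 0.01 in knockout mice over 9 members, of which 4 were higher in both genotypes and 4 lower in both. Slc4a4 (NBCe1), the basolateral bicarbonate exit of the proximal tubule, differed by -0.04 and -0.17. The anion exchanger Slc4a1 differed by 0.07 and 0.18 and its relative Slc4a2 by 0.20 and 0.07, and pendrin, Slc26a4 of the intercalated cells, by -0.03 and 0.11. The sodium-potassium-chloride cotransporter Slc12a2 differed by -0.14 and -0.07 and the potassium-chloride cotransporter Slc12a7 by 0.04 and 0.01. The sodium-calcium-potassium exchanger Slc24a2 was the lowest of the class in knockout mice, at -0.18.

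Metal carriers had a median of -0.07 in wild-type (8 of 12 lower) and 0.03 in knockout mice (5 of 12 lower). Slc30a5, a zinc carrier of the secretory pathway, read 6.61 on DM-WT and 6.91 on ND-WT, and 6.64 on DM-KO and 6.88 on ND-KO, with a limma adjusted p of 0.258. The diabetic arrays were the low pair. Slc31a2, a copper carrier of internal membranes, read 7.53 on DM-WT and 7.34 on ND-WT, and 7.53 on DM-KO and 7.20 on ND-KO, and the diabetic arrays were the high pair. Slc30a1, the zinc exporter of the plasma membrane, differed by -0.41 in wild-type and 0.08 in knockout mice, and ND-WT was again the odd array. The iron carriers Slc11a2 and ferroportin, Slc40a1, differed by no more than 0.07 in either genotype, and the zinc and manganese importer Slc39a8 by -0.16 and -0.11.

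Among mitochondrial carriers outside the edge columns, 8 of 16 were higher in wild-type and 11 of 16 in knockout mice. Counts above 0 were 6 and 8 with median scaling, where the median of all genes was -0.08 and -0.02, and 6 and 7 in the values deposited by the authors, where it was -0.06 and -0.05. Of the adenine nucleotide exchangers, Slc25a4 differed by 0.23 and 0.07, and Slc25a5 by 0.29 and 0.13. The limma diabetes coefficient of Slc25a5 was 0.21 with quantile normalization, -0.06 with median scaling and -0.02 in the deposited value table, where the medians of all genes were -0.0042, -0.05 and -0.06. Slc25a20, which brings acylcarnitines in for fatty acid oxidation, differed by 0.29 and 0.04, the pyrimidine nucleotide carrier Slc25a33 by -0.13 and -0.26 and the aspartate-glutamate carrier Slc25a13 by -0.08 and -0.21. Slc25a10, the dicarboxylate carrier, read 8.96 on DM-WT, 9.35 on ND-WT, 9.34 on DM-KO and 9.27 on ND-KO, with DM-WT as the low array.

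Nucleoside and nucleotide sugar carriers had medians of -0.02 in wild-type (12 members, 8 lower) and -0.05 in knockout mice (14 members, 9 lower). The knockout median includes members of the edge columns that were not measured on DM-WT, and without them it was -0.04 (11 members). Slc29a1 (ENT1), the equilibrative nucleoside carrier, read 6.65 on DM-WT and 6.29 on ND-WT, and 6.55 on DM-KO and 6.32 on ND-KO. The diabetic arrays were the high pair, with a limma adjusted p of 0.258. Slc35b1 differed by -0.02 and 0.16, Slc35b4 by -0.12 and -0.09 and Slc35f5 by -0.01 and -0.04, and the sugar phosphate exchanger Slc37a2 by -0.08 and -0.06.

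Of the vitamin and lipid carriers, the thiamine carrier Slc19a2 read 7.05 on DM-WT and 6.78 on ND-WT, and 7.08 on DM-KO and 6.79 on ND-KO. The difference was nearly the same in each genotype, 0.28 and 0.29, with a limma adjusted p of 0.235. Slc23a1, which takes back filtered vitamin C, differed by 0.04 in wild-type and 0.36 in knockout mice. The fatty acid carrier Slc27a1 differed by 0.11 and 0.19, and Slc27a2 by -0.10 and -0.14. The scaffold Slc9a3r1 (NHERF1) differed by -0.07 and -0.23, Slc9a3r2 (NHERF2) by -0.11 and 0.09, and Slc4a1ap by -0.00024 and -0.06.

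**Figure D4:**
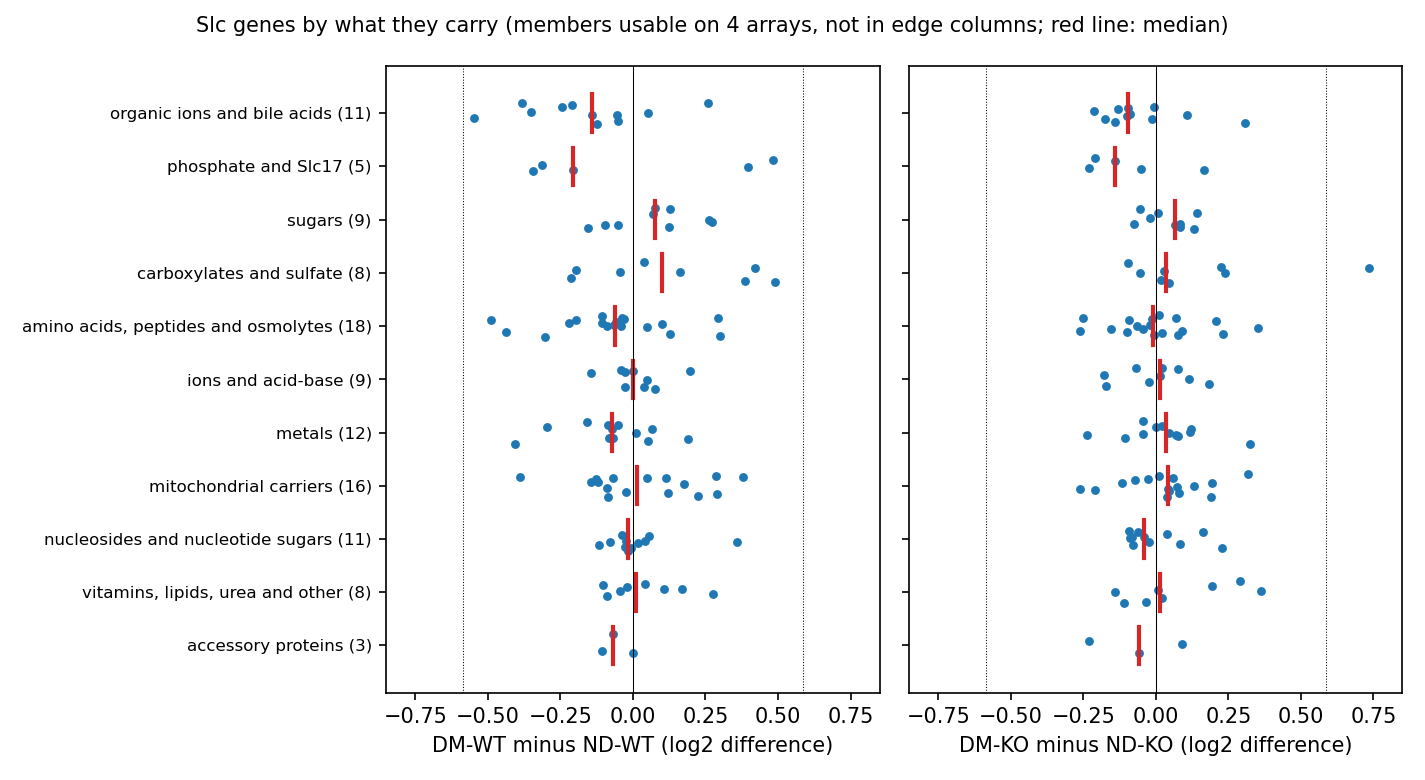
Each point is a solute carrier usable on 4 arrays and outside the edge columns, placed by class (y axis, number of members in brackets) and by its log2 difference with diabetes in wild-type (left panel, x axis) and knockout mice (right panel); red lines are class medians and dotted lines mark 1.5-fold. The medians of the organic ion and bile acid class, -0.14 and -0.10, lie left of 0 in both panels, and Slc16a1, at 0.74, is the only point past a dotted line.

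Lists of other genes of the same cortex had medians both larger and close to 0, by size alone. All 9 measured androgen-dependent genes of the male kidney were lower in each genotype, with medians of -0.74 and -0.72, and all 6 measured macrophage markers were higher, with medians of 0.84 and 0.36. Mean log2 over those 6 markers was 7.94 on DM-WT and 7.22 on ND-WT, and 7.65 on DM-KO and 7.30 on ND-KO, while Slc11a1 of macrophages was at background on all 4. The measured distal tubule markers were Calb1, at 0.93 and 0.72, and Pvalb, at 0.69 and 0.36. Proximal tubule markers were lower in 7 of 13 in wild-type and 9 of 14 in knockout mice, with medians of -0.05 and -0.13. Medians were 0.05 and -0.02 for the 7 thick limb markers and 0.12 and -0.00072 for 6 endothelial markers. The part of these lists in the carriers' differences was not tested. Among other transporters, 4 organic anion carriers of the Slco family were measured: Slco3a1 differed by -0.87 and -0.34, Slco1a6 by -0.31 and -0.34, Slco1c1 by 0.25 and -0.15 and Slco2a1 by 0.13 and -0.05. Sodium pump subunits had 3 higher and 3 lower in each genotype, with medians of 0.02 and -0.0054, and ABC transporters had medians of -0.02 (14 measured) and -0.04 (15 measured).

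Between genotypes, 1 of 115 members differed at least 1.5-fold in diabetic mice (DM-KO minus DM-WT), Slc25a3, against 111 of 6106 genes (1.82%). In nondiabetic mice (ND-KO minus ND-WT) 1 of 122 did, Slc16a1, against 38 of 6253 genes (0.608%). Limma called no member for genotype, 0 of 122 against 3 of 6507 genes (0.0461%), and with the edge columns left out 0 of 115 against 6 of 6214 genes (0.0966%). At an unadjusted p under 0.05, 11 of 122 members (9.02%) passed, 5 higher and 6 lower in knockout mice, against 590 genes (9.07%).

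Slc22a12, the apical urate carrier of the proximal tubule, had the smallest p for genotype among the members. Among diabetic mice it read 8.45 on DM-KO and 8.09 on DM-WT, and among nondiabetic mice 8.62 on ND-KO and 8.14 on ND-WT. Both knockout arrays stood above both wild-type arrays, with a limma coefficient of 0.42, a 95% interval of 0.23 to 0.61 and an adjusted p of 0.348, or 0.134 without the edge columns. Pairs of genotype differences give DM-KO minus DM-WT and then ND-KO minus ND-WT. Slc22a6 was also higher in knockout mice, by 0.41 and 0.19 (limma adjusted p 0.452), while the other organic anion carrier, Slc22a8, differed by 0.08 and 0.05. Slc35f5 differed by 0.19 and 0.22, Slc38a3 by 0.16 and 0.23 and Slc6a4 by 0.40 and 0.15.

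Slc16a1 read 7.96 on DM-KO against 8.24 on DM-WT, and in nondiabetic mice 7.22 on ND-KO against 7.85 on ND-WT. It was lower in knockout mice by 1.21-fold and 1.54-fold, with a limma coefficient of -0.45, a 95% interval of -0.74 to -0.16 and an adjusted p of 0.430. Slc3a2 differed by -0.23 and -0.29, Slc7a9 by -0.26 and -0.16, Slc25a13 by -0.26 and -0.13 and Slc20a1 by -0.45 and -0.13. Of the other Slc16 members usable on 4 arrays, Slc16a7 differed by 0.11 and 0.36, Slc16a3 by 0.13 and 0.04, Slc16a9 by 0.08 and -0.13 and Slc16a11 by -0.01 and 0.08. Slc44a2, the member nearest to Icam1 on mouse chromosome 9 with 14 protein-coding genes between them in RefSeq GRCm38.p6, differed by 0.02 and 0.09.

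**Figure D5:**
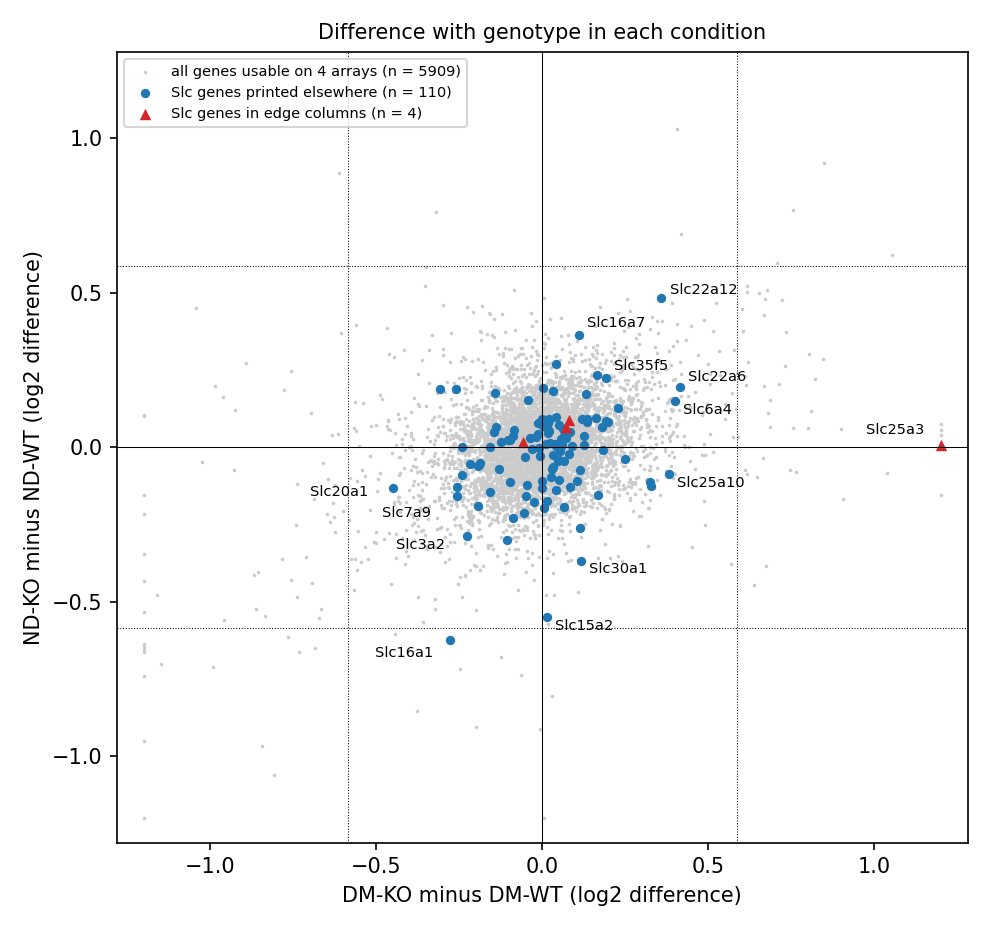
Each point is a gene usable on 4 arrays, at its log2 difference of DM-KO minus DM-WT (x axis) and ND-KO minus ND-WT (y axis); blue points are solute carriers, red triangles those of the edge columns, grey points all 5909 genes, and dotted lines mark 1.5-fold. Values beyond 1.2 are drawn at 1.2, as for Slc25a3 at 4.77 on the x axis. Slc22a12 lies at 0.36 and 0.48, and Slc16a1 at -0.28 and -0.63 is the only blue point past a dotted line.

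The difference with diabetes in knockout mice minus that in wild-type mice was a value only, because the 4 arrays leave nothing to test it. Outside the edge columns it was highest for Slc15a2 (0.56), Slc30a1 (0.49), Slc25a10 (0.47), Slc22a18 (0.45) and Slc25a15 (0.44), and lowest for Slc25a23 (-0.50), Slc34a2 (-0.45), Slc20a1 (-0.32), Slc5a1 (-0.32) and Slc16a7 (-0.25). For Slc15a2 and Slc30a1 the odd array was ND-WT, and for Slc25a10, Slc22a18, Slc25a23, Slc34a2 and Slc20a1 it was DM-WT.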

How the data were processed

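Total RNA of the renal cortex was biotin-labelled and read on 1 CodeLink array per group, per the labels. The deposited scanner tables hold spot mean and local background median intensity, per the file headers, neither subtracted nor scaled, with a quality flag. The deposited value table, also intensity, equalled spot mean minus background divided by 1 constant per array (38.1 on DM-WT, 43.9 on ND-WT, 46.9 on DM-KO, 45.0 on ND-KO); the rule behind the constant is not given in the sources used here. Its column medians were 0.930, 0.926, 0.930 and 0.929 in that order.

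From the scanner intensity, normexp correction (offset 50), log2 and quantile normalization were run over 10032 gene probes in limma 3.58.1 under R 4.3.3, with poor spots set to missing and probes of a gene averaged. Names came from the platform annotation (8982 probes) or a transcript accession (285), and 765 probes had none; Slc25a15 and Slc28a2 were matched by their values alone. The additive limma fit covered 6507 genes usable on at least 2 arrays and was tested on simulated data. Most members were named by a fixed rule: the edge columns, a list of 71 kidney carriers (54 on the array), the extremes of each comparison, bounds and up to 4 per class. Others were named outside that rule, such as Slc24a2, Slc44a2, some Slc16 members, some holders of a motif and some members at background. Members and lists were chosen with earlier results of these data known.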

Additional observations from a re-analysis of the deposited data

Results flagged for a closer look

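With 1 array per group no array could be set against others of its group. The difference with diabetes had opposite signs in the genotypes, each larger in size than 0.108, for 3 solute carriers outside the edge columns. That limit is the median SD between spots of the same bacterial probe within an array and holds no spread between mice or arrays, and the smaller difference of each gene was close to it (-0.12 for Slc25a23, -0.12 for Slc25a15 and 0.13 for Slc2a1). Slc25a23, a calcium-regulated carrier of ATP and phosphate, read 7.46 on DM-KO and 7.57 on ND-KO, and 7.77 on DM-WT and 7.39 on ND-WT, so the difference in knockout mice minus that in wild-type mice was -0.50. Slc25a15, the ornithine carrier of the urea cycle, read 8.26 on DM-KO and 7.94 on ND-KO, and 7.93 on DM-WT and 8.06 on ND-WT, giving 0.44. Slc2a1 (GLUT1) read 7.08 on DM-KO and 6.95 on ND-KO, and 6.83 on DM-WT and 6.98 on ND-WT, giving 0.29. None of these differences between genotypes was tested.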

How the results depend on the processing

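Members at least 1.5-fold different between DM-WT and ND-WT numbered 1 in the main setting. They numbered 0 without the edge columns, 2 with an offset of 16, 5 with median scaling (0 higher and 5 lower), 8 in the deposited value table (2 higher and 6 lower) and 4 with no filter on dim spots. Between DM-KO and DM-WT the count of 1 became 0 without the edge columns, 3 with an offset of 16, 3 in the value table and 4 with no filter. Between ND-KO and ND-WT it became 2 with an offset of 16 and 3 in the value table. Between DM-KO and ND-KO it was 1, Slc16a1, in all 9 settings. The cause was not tested, except that the edge setting removes Slc25a3 by construction. Limma called 0 members for diabetes and 0 for genotype in every setting that kept all 4 arrays. This says little about small changes, since the fit recovered 0% of simulated 1.5-fold changes, with or without the edge columns. The simulated share is only a rough guide. On the real arrays without the edge columns the fit called 93 of 6214 genes for diabetes. The macrophage marker C1qc was among them (limma adjusted p 0.0474), with main-setting differences of 0.56 in wild-type and 0.41 in knockout mice. One setting, chosen after seeing the data, left out DM-WT, so that diabetes and wild type rested on 1 array each, assumed to vary like the others. The diabetes coefficient of Slc25a5 was -0.05896 with median scaling and -0.01923 in the value table, below 0 in place of above it, but the medians of all genes there were -0.05 and -0.06, so the value-table coefficient stood above that median. Of 2815 values of single members over the other settings, 2630 counted as unchanged, 183 as moved and 2 as reversed. For a difference between a pair of arrays, unchanged meant a shift smaller than the spread between spots. For a limma coefficient it meant only the same sign and the same side of an adjusted p of 0.05. Taking the brightest probe, dropping the filter on dim spots or keeping members usable on 4 arrays could not move a pair difference. Those settings leave the normalized values of these members as they are. No paired analysis was possible because each group has 1 array and the labels give no replicate numbers. With 1 array per group, the fit recovered 0% of simulated 1.5-fold and 46.0% of 2-fold changes with diabetes. Without the edge columns these were 0% and 56%.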
